A study of Mus musculus with 2 samples.

Results

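The 8 genes described here handle retinoids, the vitamin A compounds, and were taken by symbol as 8 of the 53717 features in the count tables. They are Rbp4, Stra6, Crabp2, Rdh10, Aldh1a1, Aldh1a2, Cyp26b1 and Rarb. They were chosen by their measured levels across cell classes in these same samples, so their levels by cell class are a description and carry no test. The set covers carriage, uptake, synthesis, binding, clearance and a receptor, which is wider than synthesis and binding alone.

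Retinol travels in blood on the carrier protein encoded by Rbp4, in a complex with transthyretin (Ttr), and the membrane protein Stra6 takes it into cells. Retinol dehydrogenases such as Rdh10 turn it into retinal, and the retinaldehyde dehydrogenases Aldh1a1 and Aldh1a2 turn retinal into retinoic acid. Crabp2 brings retinoic acid to nuclear receptors such as Rarb, and Cyp26b1 degrades it. In the brain, the meninges are known for Aldh1a2 and the choroid plexus epithelium for making transthyretin.

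The samples were hippocampi of 5xFAD mice, a strain that carries human disease mutations in amyloid and presenilin transgenes, labelled with a time of 6 months. One group received AAV9-GFAP::NeuroD1-P2A-GFP, a viral vector for the proneural factor NeuroD1 and green fluorescent protein (GFP), and the control group received AAV9-GFAP::GFP. Expression from both vectors is driven by the GFAP promoter, used to reach astrocytes, tissue was taken 3 weeks after injection, and both groups are 5xFAD, so no animal without the transgenes is compared. The series text gives 3 mice per group, but each group is 1 single-cell RNA library (NeuroD1 sample and GFP sample below), so there is no replicate and no test between groups, and whether cells of the mice were pooled is not stated.

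The NeuroD1 sample held 12784 cells after filters, with a median of 2554.5 UMIs (unique molecular identifiers, counts of captured RNA molecules), against 11082 cells with a median of 1169 UMIs in the GFP sample. Ttr RNA was present in every class in both samples and made up 12.97% of UMIs in the NeuroD1 sample and 2.24% in the GFP sample. In microglia-like cells, which do not make it, Ttr was at 14501 CPM (UMIs of a gene scaled to 1000000 UMIs of the class sum) in the NeuroD1 sample and 1984 CPM in the GFP sample. The feature for the NeuroD1 vector, ND1, had 0 UMIs throughout, and vector GFP was found in 3.00% of the astrocyte-like cells from the NeuroD1 sample and 62.7% of those of the GFP sample, so neither checks which sample received NeuroD1, and groups follow the labels. Cell barcodes shared by both samples numbered 99. Cells fell into 28 clusters, made without the retinoid genes, of which 4 stayed unnamed. The others gave 14 classes called by their markers, such as fibroblast-like cells led by Dcn, Mgp and Lum (118 cells in the NeuroD1 sample and 28 in the GFP sample).

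In these sums, 7 of the 8 genes reached 20 UMIs in at least 1 class, counting both samples together. Only Cyp26b1, the degrading enzyme, did not: it had 7 UMIs in the whole NeuroD1 sample and 3 in the whole GFP sample. The most Cyp26b1 UMIs in any class were 4 in oligodendrocyte-like cells of the NeuroD1 sample, so differences in this gene were not detectable at this depth.

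**Figure D1:**
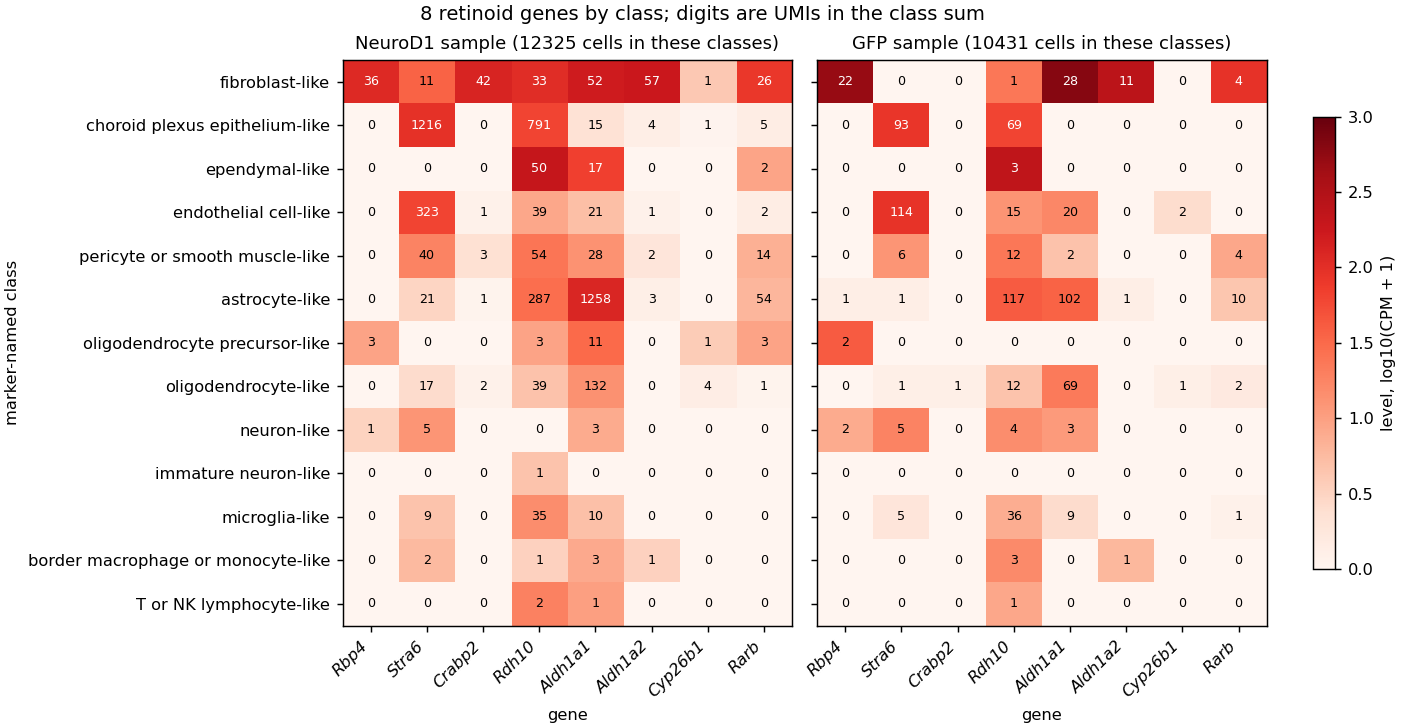
Level of each of the 8 genes as log10(CPM + 1) (colour) by marker-named class (rows) in the NeuroD1 sample (left) and the GFP sample (right); the digits are UMIs in each class sum. Rbp4, Aldh1a2 and Crabp2 have nearly all their UMIs in the fibroblast-like row, Stra6 in the choroid plexus and endothelial rows, and Aldh1a1 and Rdh10 in several rows; Crabp2 has 0 UMIs in the fibroblast-like row of the GFP sample.

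Rbp4, the retinol carrier of blood, was found almost solely in fibroblast-like cells. These cells held 36 of its 41 UMIs in the NeuroD1 sample and 22 of 27 in the GFP sample. Its level there was 112 CPM (95% Poisson interval 78.6 to 155) in the NeuroD1 sample and 502 CPM (315 to 760) in the GFP sample, a ratio of 0.224 (0.128 to 0.399). These intervals, like all others here, cover counting error only. Few cells carried the gene: 9 of 118 in the NeuroD1 sample, 1 of them with 17 of the 36 UMIs, and 5 of 28 in the GFP sample. With every cell thinned to 500 UMIs, as the value expected over all random draws, the Rbp4 ratio was 0.264.

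Stra6, the receptor that takes retinol from its carrier, was highest in choroid plexus epithelium-like cells and endothelial cell-like cells, which form the barriers to cerebrospinal fluid and blood. In choroid plexus epithelium-like cells it had 1216 UMIs (94.6 CPM) in the NeuroD1 sample and 93 UMIs (83.9 CPM) in the GFP sample, a ratio of 1.13 (0.912 to 1.41). In endothelial cell-like cells it had 323 UMIs (62.7 CPM, 56.1 to 70.0) in the NeuroD1 sample and 114 UMIs (89.1 CPM, 73.5 to 107) in the GFP sample, a ratio of 0.704 (0.567 to 0.879). In CPM of all UMIs the 2 classes stood apart in the NeuroD1 sample, with choroid plexus 1.51 times endothelial. They did not differ beyond counting error in the GFP sample. Ttr takes up a large part of the choroid plexus sums (given below) and so lowers every other CPM there. This comparison of classes therefore depends on scaling, and it was not made without Ttr. Among endothelial clusters the ratio was 0.794 (0.515 to 1.28) in cluster 5, which holds 1733 cells of the NeuroD1 sample and 154 of the GFP sample, and 0.456 (0.163 to 1.03) in cluster 9, with 153 and 848 cells.

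The choroid plexus value for Stra6 depends on how the sums are scaled. Ttr alone took 458086 CPM of these cells' UMIs in the NeuroD1 sample and 295011 CPM in the GFP sample. Scaled without Ttr, haemoglobin, mitochondrial, ribosomal protein and vector genes, the Stra6 ratio was 1.42. With each cell thinned to 500 UMIs it was 1.499. Without cells holding at least 3 UMIs of fibroblast markers, which left 728 cells of the NeuroD1 sample and 225 of the GFP sample, it was 0.875. Stra6 UMIs were seen in 46.9% of these cells in the NeuroD1 sample and 21.0% in the GFP sample, and after thinning in 4.52% and 3.06%. In microglia-like cells, which should lack Stra6, 0.407% of cells had a UMI in the NeuroD1 sample (median 1811 UMIs per cell) and 0.138% in the GFP sample (median 1303).

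Stra6 in the pericyte or smooth muscle-like class, at 17.2 CPM in the NeuroD1 sample and 11.3 CPM in the GFP sample, came mainly from cluster 17, which also held RNA of the endothelial marker Cldn5. Without that cluster it was 4.44 CPM (6 UMIs) in the NeuroD1 sample and had 0 UMIs in the GFP sample. In the fibroblast-like cells Stra6 had 11 UMIs in the NeuroD1 sample and 0 in the GFP sample.

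Rdh10, which makes retinal from retinol, had UMIs in 11 of 12 classes of at least 50 cells in the NeuroD1 sample and in all 9 such classes of the GFP sample. Some of these values were near background. With free RNA subtracted, Rdh10 in the NeuroD1 sample fell from 3.71 to 0.51 CPM in oligodendrocyte-like cells and from 3.56 to 0.36 CPM in immature neuron-like cells. In border macrophage or monocyte-like cells Rdh10 fell from 2.35 to 0 CPM, and in choroid plexus epithelium-like cells from 61.5 to 58.3 CPM. In the small ependymal-like class (35 cells in the NeuroD1 sample and 7 in the GFP sample), the ciliated lining of the ventricles, it was at 199 CPM (50 UMIs, 148 to 263) in the NeuroD1 sample and 227 CPM (3 UMIs, 46.9 to 664) in the GFP sample. Fibroblast-like cells had 103 CPM (33 UMIs, 70.8 to 144) in the NeuroD1 sample and 22.8 CPM (1 UMI, 0.578 to 127) in the GFP sample, and these intervals overlap. Choroid plexus epithelium-like cells had 61.5 CPM (57.3 to 66.0) in the NeuroD1 sample and 62.2 CPM (48.4 to 78.8) in the GFP sample, a ratio of 0.988 (0.772 to 1.28).

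Within the wall cells of vessels, Rdh10 levels differed between clusters. Cluster 10, led by pericyte genes such as Vtn and Kcnj8, had 55.4 CPM (37 UMIs) in the NeuroD1 sample and 55.0 CPM (10 UMIs) in the GFP sample. Cluster 13, led by smooth muscle genes such as Acta2 and Myh11, had 11.7 CPM (8 UMIs) in the NeuroD1 sample and 7.13 CPM (2 UMIs) in the GFP sample. Cluster 17 also has Vtn and Kcnj8 among its leading genes, yet had 9.26 CPM (9 UMIs) in the NeuroD1 sample and 0 UMIs in the GFP sample.

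In astrocyte-like cells Rdh10 was lower in the NeuroD1 sample, at 27.7 CPM (287 UMIs, 24.6 to 31.1) against 39.6 CPM (117 UMIs, 32.8 to 47.5) in the GFP sample, a ratio of 0.698 (0.561 to 0.873). By cluster the astrocyte ratio was 0.490 (0.281 to 0.934) in cluster 2, 0.699 (0.398 to 1.17) in cluster 4 and 1.20 (0.531 to 2.96) in cluster 6, and the samples' cells lie in these clusters in different parts. In microglia-like cells Rdh10 was higher in the NeuroD1 sample, at 13.8 CPM (35 UMIs, 9.64 to 19.2) against 6.52 CPM (36 UMIs, 4.57 to 9.03) in the GFP sample, a ratio of 2.12 (1.29 to 3.48). The microglia-like cells of the GFP sample lay mostly in cluster 1, which has 23 cells in the NeuroD1 sample and 2994 in the GFP sample. In cluster 8, with 559 and 531 cells, the Rdh10 ratio was 0.928 (0.349 to 2.62), and over clusters with at least 50 cells in each sample it was 1.02.

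Aldh1a1, a retinaldehyde dehydrogenase that also oxidises other aldehydes, was higher in astrocyte-like cells of the NeuroD1 sample than in those of the GFP sample. It had 1258 UMIs in the NeuroD1 sample, or 121 CPM (115 to 128), and 102 UMIs in the GFP sample, or 34.6 CPM (28.2 to 41.9). The ratio was 3.51 (2.87 to 4.34), and the 2 intervals do not overlap. An Aldh1a1 UMI was found in 643 of 3430 cells (18.7%) of the NeuroD1 sample and 81 of 2164 cells (3.74%) of the GFP sample. After thinning to 500 UMIs the shares were 5.12% and 1.65%. Microglia-like cells, which should lack it, gave 0.652% and 0.248% without thinning, so the astrocyte shares stand above that background in both samples.

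The higher Aldh1a1 level was present in each of the 3 astrocyte-like clusters. Cluster 4, led by Slc1a4 and Serpina3n among others, held 353 cells of the NeuroD1 sample and 1621 of the GFP sample, with 112 CPM and 36.0 CPM and a ratio of 3.12 (2.24 to 4.33). Cluster 6, with 879 and 447 cells, had 157 CPM and 38.9 CPM and a ratio of 4.03 (2.35 to 7.41). Cluster 2, with 2198 and 96 cells, had 119 CPM and 12.98 CPM (3 UMIs) and a ratio of 9.15 (3.12 to 44.5). Each interval lies above 1.

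**Figure D2:**
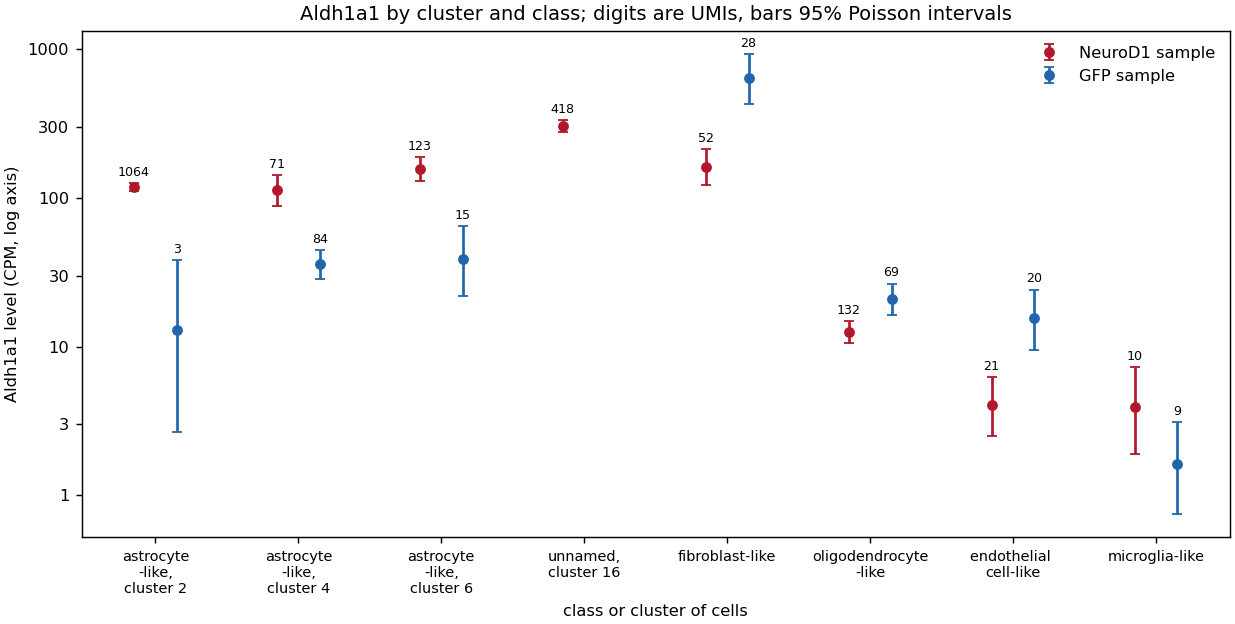
Aldh1a1 level in CPM (log axis) in the 3 astrocyte-like clusters, the unnamed cluster 16 and 4 other classes, for the NeuroD1 sample (red, left of each pair) and the GFP sample (blue, right); bars are 95% Poisson intervals and digits are UMIs. The NeuroD1 points are above the GFP points in the astrocyte-like clusters and below them in fibroblast-like, oligodendrocyte-like and endothelial cell-like cells; cluster 16 has cells of the NeuroD1 sample only.

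Among astrocyte-like cells, those with a vector GFP UMI had more Aldh1a1 than those without in both samples. The levels were 166 CPM (131 to 208, 103 cells) with GFP and 119 CPM (112 to 126, 3327 cells) without in the NeuroD1 sample, and 44.4 CPM (35.5 to 54.9, 1357 cells) with GFP and 15.7 CPM (8.99 to 25.5, 807 cells) without in the GFP sample. Cells with a UMI of Gfap, the astrocyte filament gene, had 136 CPM and those without 57.0 CPM in the NeuroD1 sample, and 35.1 CPM and 32.1 CPM in the GFP sample. Cells with a UMI of either gene were also deeper, with medians of 3869 against 2276 UMIs by GFP in the NeuroD1 sample and 1224 against 1016 UMIs in the GFP sample. By Gfap the medians were 3056 against 1556 UMIs and 1269 against 866 UMIs. Reads shared with the near-identical gene Aldh1a7 could not be told apart beyond the authors' own counting; Aldh1a7 itself had 7 UMIs in the NeuroD1 sample and 1 in the GFP sample.

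Aldh1a1 was lower in the NeuroD1 sample in 3 other classes. Fibroblast-like cells had 52 UMIs (162 CPM, 121 to 213) in the NeuroD1 sample and 28 UMIs (639 CPM, 424 to 923) in the GFP sample, a ratio of 0.254 (0.157 to 0.417). Oligodendrocyte-like cells had 132 UMIs (12.6 CPM) in the NeuroD1 sample and 69 UMIs (20.9 CPM) in the GFP sample, a ratio of 0.600 (0.445 to 0.815), with 0.577 (0.319 to 1.15) in cluster 0 and 0.555 (0.146 to 1.501) in cluster 3. Endothelial cell-like cells had 21 UMIs (4.08 CPM) in the NeuroD1 sample and 20 UMIs (15.6 CPM) in the GFP sample, a ratio of 0.261 (0.135 to 0.507). The endothelial value of the NeuroD1 sample was close to that of microglia-like cells of the same sample, 3.95 CPM, and read as background it is no level of its own. Within endothelial clusters the ratio was 0.312 (0.0903 to 1.66) in cluster 5 and 1.64 (0.402 to 5.04) in cluster 9.

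RefSeq promoters in build GRCm38.p6, another build than that of the counts, hold 2 starts of Aldh1a1. The bases before one start, chr19:20601718-20601967 on the plus strand, are shown because this gene carries the best counted difference between the samples. Capitals mark the letters CCAAT, searched on both strands (ATTGG on the other), which 37.4% of the 32851 promoter windows of the table hold.
Aldh1a1: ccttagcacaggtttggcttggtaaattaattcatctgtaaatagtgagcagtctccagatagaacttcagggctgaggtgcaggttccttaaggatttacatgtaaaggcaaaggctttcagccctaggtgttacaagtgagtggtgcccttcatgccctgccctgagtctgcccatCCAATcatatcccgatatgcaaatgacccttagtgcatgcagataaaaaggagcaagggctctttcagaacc

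Aldh1a2, the main retinaldehyde dehydrogenase of the meninges, was, like Rbp4, found mainly in fibroblast-like cells. These held 57 of its 68 UMIs in the NeuroD1 sample and 11 of 13 in the GFP sample. Its level there was 178 CPM (135 to 230) in the NeuroD1 sample and 251 CPM (125 to 449) in the GFP sample, a ratio of 0.708 (0.367 to 1.498). No other class had over 4 UMIs of Aldh1a2 in either sample, and at 0 were, among others, the oligodendrocyte-like cells (3154 in the NeuroD1 sample and 2277 in the GFP sample) and the microglia-like cells (1227 and 3627).

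Crabp2, which carries retinoic acid to the nucleus, had 42 of its 49 UMIs in the NeuroD1 sample in fibroblast-like cells, at 131 CPM (94.3 to 177) and in 23 of 118 cells. In the GFP sample 0 of 28 fibroblast-like cells had a UMI, and the whole sample had 1. A count of 0 allows up to 3 UMIs, or 68.4 CPM, in that class sum, against which the Crabp2 level of the NeuroD1 sample was 1.91-fold higher. The lower 95% limit of the ratio, from the counts of both sums, was 1.49. Elsewhere Crabp2 had at most 3 UMIs in any class, those in pericyte or smooth muscle-like cells of the NeuroD1 sample.

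Rarb, a retinoic acid receptor whose own promoter is a textbook target of retinoic acid, was at 81.0 CPM (26 UMIs, 52.9 to 119) in fibroblast-like cells of the NeuroD1 sample and 91.2 CPM (4 UMIs, 24.9 to 234) in those of the GFP sample. In astrocyte-like cells it was at 5.21 CPM (54 UMIs) in the NeuroD1 sample and 3.39 CPM (10 UMIs) in the GFP sample, a ratio of 1.54 (0.775 to 3.38). Neither ratio stood apart from 1 at this depth. Pericyte or smooth muscle-like cells had 14 UMIs (6.03 CPM) in the NeuroD1 sample and 4 UMIs (7.54 CPM) in the GFP sample.

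The bases before the RefSeq start of Rarb, chr14:16575477-16575726 on the minus strand of GRCm38.p6, are shown because they hold the letters of a retinoic acid response element. The capitals mark a direct repeat, GTTCA and GTTCA with 6 bases of any kind between, searched on both strands (TGAAC and TGAAC on the other), which starts at position -52 from the start. It occurs in 25 of the 32851 promoter windows (0.0761%, each 250 bases before to 50 after a start). Among the 6 of the 8 genes with an entry, 11 windows in all, only this window of Rarb holds it; the match describes these letters and is not evidence of binding here.
Rarb: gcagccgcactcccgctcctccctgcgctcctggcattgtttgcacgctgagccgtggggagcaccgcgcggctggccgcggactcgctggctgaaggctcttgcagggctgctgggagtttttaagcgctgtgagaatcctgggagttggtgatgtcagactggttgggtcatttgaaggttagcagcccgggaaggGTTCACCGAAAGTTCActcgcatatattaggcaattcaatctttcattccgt

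Of the 118 fibroblast-like cells of the NeuroD1 sample 87 had a UMI of at least 1 of the 8 genes, and 38 had UMIs of 2 or more. In the GFP sample 19 of 28 had at least 1 and 9 had 2 or more. Aldh1a1 and Aldh1a2 were found together: 18 of the 34 Aldh1a1 cells of the NeuroD1 sample also had Aldh1a2 (52.9%, against 11.9% of cells without Aldh1a1), and 5 of 12 of the GFP sample did (41.7% against 18.8%). The retinol-oxidising enzyme Adh1 was seen in 1 of these 34 cells and in 0 of these 12 cells, against 28.6% and 37.5% of the cells without Aldh1a1. The Aldh1a1 cells were the deeper ones in the NeuroD1 sample (median 2130 against 1621.5 UMIs), and in the GFP sample their median was 1112 against 1167.5 UMIs.

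Rbp4 went with Adh1 instead. Of the Rbp4 cells, 6 of 9 in the NeuroD1 sample and 4 of 5 in the GFP sample had Adh1. Crabp1, the relative of Crabp2, was in 4 of these 9 and 2 of these 5 cells. Rdh10 was found beside Adh1 and beside Aldh1a2: 12 of its 23 cells in the NeuroD1 sample had Adh1 and 9 had Aldh1a2, while its 1 cell in the GFP sample had Aldh1a1 and Aldh1a2 and no Adh1. The Rbp4 cells were deep, with a median of 4658 UMIs in the NeuroD1 sample and 3326 UMIs in the GFP sample, so more genes could be seen in them. Of the 23 Crabp2 cells of the NeuroD1 sample 6 had Aldh1a1, 3 had Aldh1a2, 1 had Adh1 and 0 had Crabp1, at a median of 1186 UMIs.

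These sets also differed in fibroblast markers, described here for cells of the NeuroD1 sample with UMIs of 1 set only. The 34 cells with Aldh1a1 or Aldh1a2 had 2832 CPM of the transporter gene Slc6a13, against 54.3 CPM (1 UMI) in the 15 Crabp2 cells and 19.98 CPM (2 UMIs) in the 23 cells with Adh1 or Rbp4. Dcn, a matrix proteoglycan, was at 5408 CPM in the Aldh1a1 or Aldh1a2 cells and 5773 CPM in the Adh1 or Rbp4 cells, but had 0 UMIs in the Crabp2 cells, as did Lum. Mgp, a matrix protein that binds calcium, was at 115 CPM in the Aldh1a1 or Aldh1a2 cells, 14705 CPM in the Crabp2 cells and 6412 CPM in the Adh1 or Rbp4 cells. In the GFP sample, the 14 cells with Aldh1a1 or Aldh1a2 had 660 CPM of Slc6a13 and 3111 CPM of Mgp, and the 6 cells with Adh1 or Rbp4 had 0 UMIs of Slc6a13 and 7944 CPM of Mgp. The sets were drawn after the values were seen, and by UMIs of genes whose ratios are given above. No set of Crabp2 cells exists in the GFP sample, which restates its 0 Crabp2 UMIs in 28 fibroblast-like cells. The set with Adh1 or Rbp4 held 23 of 118 cells in the NeuroD1 sample and 6 of 28 in the GFP sample. That with Aldh1a1 or Aldh1a2 held 34 of 118 and 14 of 28. Whether the make-up of the class differs between the samples was not tested.

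**Figure D3:**
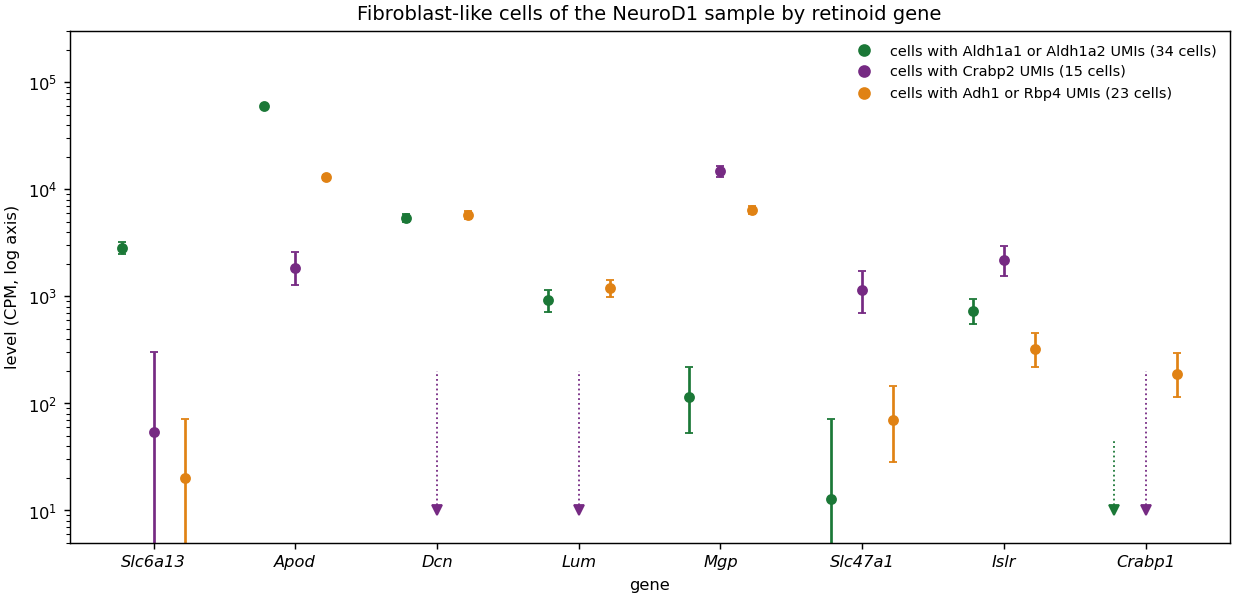
Levels in CPM (log axis) of fibroblast markers and of Crabp1 in fibroblast-like cells of the NeuroD1 sample that carry UMIs of Aldh1a1 or Aldh1a2 (green, 34 cells), of Crabp2 (purple, 15 cells) or of Adh1 or Rbp4 (orange, 23 cells) and of no other set; bars are 95% Poisson intervals, and triangles with dotted lines mark 0 UMIs with the upper limit. Slc6a13 is high in the first set, Mgp and Slc47a1 in the second, and Crabp1 is seen in the third.

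Ratios of the 8 genes past 2-fold were counted class by class where the sums of both samples held at least 20 UMIs. In fibroblast-like cells 2 of 6 measured genes were at least 2-fold higher in the NeuroD1 sample, where 18.0% of all genes were: Rdh10, whose interval spans 1 (0.755 to 183), and Crabp2, whose ratio needs 0.5 UMI added to each sum and has a lower 95% limit of 1.49. In the same cells 2 were at least 2-fold lower, Aldh1a1 and Rbp4, where 10.4% of all genes were. In astrocyte-like cells 2 of 4 were at least 2-fold higher, against 3.21% of all genes: Aldh1a1, and Stra6, with 21 UMIs against 1 and an interval of 0.961 to 247. That Stra6 level, 2.02 CPM in the NeuroD1 sample, was below the 3.56 CPM of microglia-like cells of the same sample, which should lack it. After subtraction of free RNA, Stra6 in astrocyte-like cells was at 0 in both samples. None of the 4 was at least 2-fold lower in astrocyte-like cells, against 11.5% of all genes. In endothelial cell-like cells 1 of 3 was at least 2-fold lower, Aldh1a1, and none higher, where 5.81% of all genes were lower and 8.83% higher. In microglia-like cells the 1 measured gene, Rdh10, was at least 2-fold higher, where 17.0% of all genes were higher and 9.73% lower. In pericyte or smooth muscle-like cells 1 of 3 was higher, Aldh1a1 (28 UMIs against 2, ratio 3.20, 0.806 to 27.7), where 11.0% of all genes were higher and 5.93% lower. None of 2 in choroid plexus epithelium-like cells (4.23% higher and 15.8% lower among all genes) and none of 2 in oligodendrocyte-like cells (4.15% and 7.8%) passed 2-fold.

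**Figure D4:**
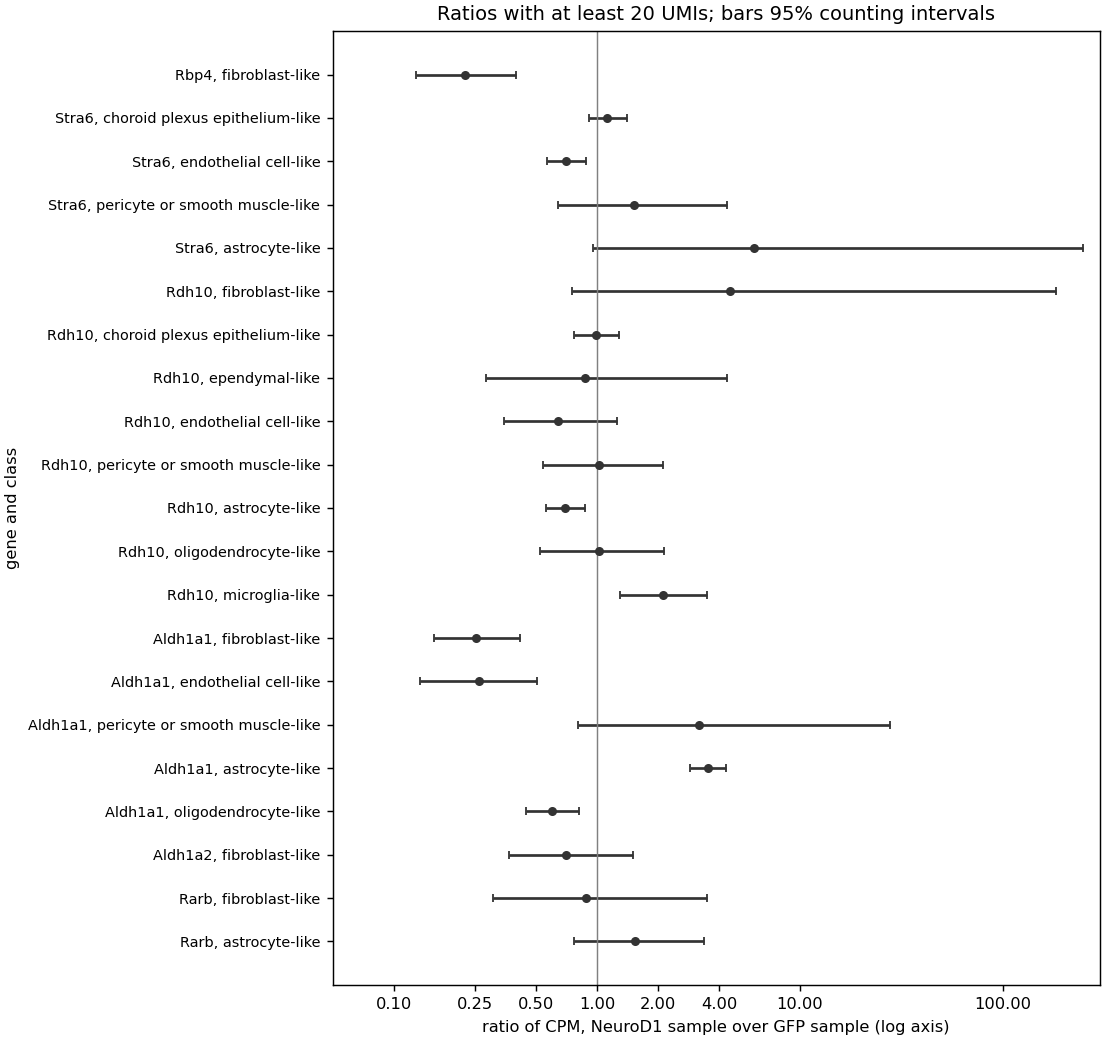
Ratio of CPM, NeuroD1 sample over GFP sample (log axis), for each gene and class that has 20 or more UMIs over the sums of both samples and UMIs in each; points are ratios and bars 95% conditional binomial intervals. The intervals of Aldh1a1 lie above 1 in astrocyte-like cells and below 1 in fibroblast-like, endothelial cell-like and oligodendrocyte-like cells, and most others cross 1.

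The rest of the pathway was read from a list of 53 other genes of retinoid uptake, esters, oxidation, binding, clearance, receptors, cofactors and targets. In astrocyte-like cells 28 of them were measured, with a median log2 ratio of -0.26 beside -0.16 over all 13069 genes. Of the 28, 2 were past 2-fold upward and 2 past it downward in the NeuroD1 sample, against 3.21% and 11.5% of all genes. The 2 higher ones were Ttr and Fabp5, a fatty acid binding protein that also binds retinoic acid, at 721 CPM in the NeuroD1 sample and 348 CPM in the GFP sample. Ttr RNA was found in every class and made up 12.97% of all UMIs in the NeuroD1 sample and 2.24% in the GFP sample. The part of free RNA in the astrocyte value of Ttr was not tested. The 2 lower ones were the coactivator Ncoa3 (2.70 CPM against 9.15 CPM) and the transglutaminase Tgm2 (1.35 CPM against 4.40 CPM). Astrocyte-like cells also held the retinal reductase gene Dhrs3 at 116 CPM in the NeuroD1 sample and 127 CPM in the GFP sample.

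In choroid plexus epithelium-like cells 27 of the list were measured, with a median log2 ratio of -0.31 beside -0.35 over all genes. Of the 27, 1 was at least 2-fold higher and 3 lower, against 4.23% and 15.8% of all genes. Rdh5, a retinol dehydrogenase best known from the eye, was at 663 CPM in the NeuroD1 sample and 597 CPM in the GFP sample there. In endothelial cell-like cells 3 of 27 were at least 2-fold higher and 1 lower (median 0.11 beside 0.15), against 8.83% and 5.81% of all genes. The lower one was Adh1, with 31 UMIs (6.02 CPM) in the NeuroD1 sample and 34 UMIs (26.6 CPM) in the GFP sample, a ratio of 0.227 (0.135 to 0.380). In oligodendrocyte-like cells 3 of 24 were higher and 3 lower (median -0.01 beside 0.03), against 4.15% and 7.8% of all genes.

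Microglia-like cells had 8 of 23 at least 2-fold higher and 2 lower in the NeuroD1 sample, against 17.0% and 9.73% of all genes. The median was 0.64 beside 0.34 over all genes, with the split of clusters between samples given above. Tgm2 was at 42.7 CPM in the NeuroD1 sample and 6.88 CPM in the GFP sample, and the receptor Rxra at 22.1 CPM and 7.79 CPM. Ttr and Rdh5, which choroid plexus epithelium-like cells express strongly, were also among the 8. Microglia-like cells do not make Ttr, and their Ttr was taken as free RNA in the subtraction. The part of free RNA in the Rdh5 value was not tested. The 2 lower genes were Fabp5 (20.2 CPM against 117 CPM) and the receptor Rxrg (0.791 CPM against 7.43 CPM). In fibroblast-like cells 10 of the list were measured and 2 were at least 2-fold lower, Rdh13 and the corepressor Nrip1, against 10.4% of all genes. None was at least 2-fold higher, against 18.0% of all genes. All 20 Rdh13 UMIs of the GFP sample lay in 1 cell, and 17 of its 18 Nrip1 UMIs in 1 cell. Adh1 was at 309 CPM in the NeuroD1 sample and 365 CPM in the GFP sample in fibroblast-like cells.

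Genes with the most similar pattern were sought over 18 sums (9 classes with at least 50 cells in each sample, in 2 samples) among 11833 genes, by Pearson's r of log2(CPM + 1). For Aldh1a1 they were Ankrd40 (0.867), Rftn2 (0.848) and Htra1 (0.847). For Stra6 they were Efhc2 (0.919), Slc16a4 (0.911) and Sema3f (0.906), and for Rdh10 Pbxip1 (0.792), Lrrc23 (0.771) and Prodh (0.753). The sums share 2 samples and their depth and free RNA, so these values are descriptions. The 9 classes leave out fibroblast-like cells, where Aldh1a1 was highest, and ependymal-like cells, where Rdh10 was highest.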

How the data were processed

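The deposited matrices hold raw UMI counts per gene and barcode, as whole numbers, made by the authors with FastQC, fastp, cutadapt, STAR and featureCounts on genome build mm39, per the submitters' processing notes, which give no version or role; annotation release: not given in the sources used here. Per the labels' protocols, cells were dissociated with papain and captured in microwells of a SCOPE-chip, while the description names another platform (10x Genomics), and which was used is not settled here.

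The 8 genes, the gene lists and the class markers were chosen with earlier results of these data known. Barcodes start at 500 UMIs in both samples (13402 and 11739 barcodes, 51236521 and 17504950 UMIs in the NeuroD1 and GFP samples). A barcode needed 200 genes or more and no more than 20% mitochondrial UMIs; 131 NeuroD1 and 104 GFP barcodes failed this. Scrublet called 487 (3.67%) and 553 (4.75%) doublets, which were removed. Joint clustering used 3000 variable genes without retinoid, mitochondrial, ribosomal, haemoglobin, vector, immediate early and sex-linked genes and Neurod1, 30 principal components, 15 neighbours and Leiden resolution 1.0. A cluster was named "X-like" from at least 3 markers among its 50 leading genes by fold. Names rebuilt in this way may differ from the study's.

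UMIs were summed per class and sample. CPM is UMIs of the gene scaled to 1000000 UMIs of the sum, with exact Poisson 95% intervals. Ratios have conditional binomial and shares Clopper-Pearson 95% intervals, and all intervals cover counting error only. The ratio intervals were checked on simulated sums drawn with counting error alone, so the check does not cover UMIs gathered in few cells. A gene was called past 2-fold only with 20 or more UMIs over both sums. In the log2 ratios 0.5 UMI was added to each sum. In some alternatives it was also added to both sums of a plain ratio where 1 of them had 0 UMIs. Named were all 8 genes, the 3 genes most alike to each gene with at least 200 UMIs, and genes of the pathway list with at least 20 UMIs in the class described. Values of some genes are not reported here. With 1 sample per group no test was made. Alternatives were other mitochondrial filters, doublets kept, resolution 0.5, other scalings, thinning to 500 UMIs (exact hypergeometric expectation, with no random draw), means over cells, subtraction of free RNA and left-out cells. Software was scanpy 1.11.5 with leidenalg 0.10.2, and scipy 1.17.1 for the intervals, in Python 3.11.15. Promoter sequences are RefSeq's, from build GRCm38.p6.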

Additional observations from a re-analysis of the deposited data

Results flagged for a closer look

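Aldh1a1 moved in opposite directions between the samples in different classes: its log2 ratio, NeuroD1 over GFP sample, was 1.81 in astrocyte-like cells, -0.74 in oligodendrocyte-like cells, -1.94 in endothelial cell-like cells and -1.99 in fibroblast-like cells, and each of these class intervals lay to 1 side of no change. By cluster, the interval lay above 1 in each astrocyte-like cluster, but crossed 1 in both oligodendrocyte-like clusters named above and in both endothelial clusters, whose ratios were 0.312 in cluster 5 and 1.64 in cluster 9. The endothelial level of the NeuroD1 sample was near that of microglia-like cells. Rdh10 had a log2 ratio of 1.09 in microglia-like cells and -0.52 in astrocyte-like cells. Over clusters with at least 50 cells in each sample its microglia ratio was 1.02, and in astrocyte-like cluster 6 its ratio was 1.20 (0.531 to 2.96). With 1 sample per group, none of these differences between classes was tested.

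Aldh1a1 was at 304 CPM (418 UMIs, 275 to 334) in cluster 16, which stayed unnamed and whose 239 cells all come from the NeuroD1 sample. Cluster 16 enters no comparison in the main setting, but an alternative below adds it to the astrocyte-like cells. With at most 10% mitochondrial UMIs, a cluster with Gal and Sct among its leading genes (599 and 1 cells) was named astrocyte-like. Cluster 16 is led by the neuropeptide gene Gal, Sct, Ucma and, among others, Gfap. An Aldh1a1 UMI was found in 134 of its cells (56.1%), and its Gfap level was 5791 CPM, against 1146 to 1770 CPM in the 3 astrocyte-like clusters of the same sample. Fabp5 was at 1303 CPM and Rdh10 at 25.4 CPM there.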

How the results depend on the processing

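The Aldh1a1 ratio in astrocyte-like cells was above 1 in 13 of 13 alternatives, between 2.01 and 4.22, but these are not independent. Clusters with at least 50 cells in each sample include every astrocyte-like cluster, so that alternative repeats the main ratio, 3.51. Adding cluster 16 gave 4.13. The 10% mitochondrial filter, which named a cluster with Gal and Sct astrocyte-like, gave 4.14. At resolution 0.5 (4.13) and with no mitochondrial filter (4.22) no cluster was led by Gal and Sct. The lowest, 2.01, left out cells with at least 3 UMIs of fibroblast or choroid plexus markers. Those markers include Ttr, whose RNA was found in every class, and that filter left 47 astrocyte-like cells of the NeuroD1 sample and 1253 of the GFP sample, 14 and 599 endothelial cell-like cells and 3 and 66 oligodendrocyte-like cells. Under it the ratio of Aldh1a1 was 1.80 in endothelial cell-like, 9.04 in oligodendrocyte-like and 0.470 in fibroblast-like cells (4 and 17 cells left). That of Rdh10 was 0.275 in astrocyte-like and 4.94 in microglia-like cells (12 and 2108 cells left). That of Stra6 was 1.22 in endothelial cell-like and 0.875 in choroid plexus epithelium-like cells. Where 1 of the 2 sums had 0 UMIs, 0.5 UMI was added to each sum for these ratios. They have no intervals here and, except in choroid plexus, rest on few cells of the NeuroD1 sample. No change of direction is read from them. The highest class of a gene is the one with its highest CPM in the NeuroD1 sample, among classes with at least 50 cells there. It was choroid plexus epithelium-like for Stra6 and fibroblast-like for the other genes, and it was chosen from the values compared. For Cyp26b1 it rests on 1 UMI, and that gene is not among the 7 counted below. For Aldh1a1 the second class was astrocyte-like, at 121 against 162 CPM, with overlapping intervals. For Rdh10 it was choroid plexus epithelium-like, at 61.5 against 103 CPM, and Ttr lowers the CPM of other genes in that class. Under the same filter 0 genes in their highest class were at least 2-fold higher and 0 lower, against 2 and 2. The number higher was also 0 with at least 50 UMIs required, and 1 with means over cells, with cells thinned to 500 UMIs (which gives the same ratios as those means, since every cell has 500 UMIs or more) or with free RNA subtracted, where Crabp2 gives no ratio against 0 UMIs. After that subtraction, in proportion to Ttr in microglia-like cells, Aldh1a1 in endothelial cell-like cells of the NeuroD1 sample was at 0 and gave no ratio. The highest class in the NeuroD1 sample held for 6 to 7 of 7 genes over 8 alternatives. Fibroblast-like cells gave no value with clusters of at least 50 cells in each sample. Leaving out marker cells by the list without Ttr, adding cluster 16, leaving out the top cell and leaving out cluster 17 were chosen after seeing the data. No paired analysis was possible because each group is 1 sample and the groups share only 1 replicate number. Depth limits every value of Cyp26b1 and all fibroblast-like values of the GFP sample, which rest on 28 cells.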

Other observations

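Rlbp1, which encodes a retinal binding protein known from the eye, was at 459 CPM (166 UMIs in 108 cells) in oligodendrocyte precursor-like cells of the NeuroD1 sample and 200 CPM (10 UMIs in 32 cells) in those of the GFP sample. In astrocyte-like cells Rlbp1 was at 87.1 CPM in the NeuroD1 sample and 146 CPM in the GFP sample. The unnamed cluster 19, led by Lrg1 and Ackr1, held Adh1 at 73.3 CPM (61 UMIs in 152 cells) in the NeuroD1 sample and 138 CPM (4 UMIs in 14 cells) in the GFP sample. Rarres2, which encodes chemerin and is named for its response to retinoids, was at 506 CPM in pericyte or smooth muscle-like cells of the NeuroD1 sample and 662 CPM in those of the GFP sample.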
